A study of Mus musculus with 6 samples.

Results

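The genes described here are 10 keratins of simple and stratified epithelia, *Krt8*, *Krt7*, *Krt80* and *Krt5* of type II and *Krt18*, *Krt19*, *Krt23*, *Krt15*, *Krt17* and *Krt14* of type I, taken by name from the 56748 genes in the deposited tables. Their RNA was compared between 3 control uteri and 3 *Gp130* ecKO uteri, taken on day 4 of pregnancy at 1600 h. Values are listed in the order of replicates 1, 2 and 3, and ecKO stands for *Gp130* ecKO beside them. The *Gp130* ecKO females carried *Ltf*-iCre and floxed *Gp130*, so that the deletion was driven by the lactoferrin gene in the uterine epithelium. The control females are labelled wildtype and, in the methods of the study, carried floxed *Gp130* without iCre or were wildtype. All were on a C57BL/6 background in the labels, C57BL/6J in the methods, were sexually mature, and had been mated with a fertile wildtype male. RNA came from the uterus without separation of its layers, so every value also reflects stroma, muscle and vessels, and a smaller or larger share of epithelial cells cannot be told apart from less or more RNA per epithelial cell. *Il6st*, the gene of Gp130, had 631, 678 and 452 CPM in control uteri and 388, 349.8 and 362 CPM in ecKO uteri.

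Keratins build the intermediate filaments of epithelial cells, and a filament needs a type I and a type II chain in equal amounts. *Krt8* and *Krt18* form the usual pair of simple epithelia such as the uterine lumen and glands, with *Krt7* and *Krt19* as further chains of simple epithelia, while *Krt5* and *Krt14* form the pair of the basal layer of stratified epithelia. KRT8 is widely used to outline the uterine epithelium, and the study examined it together with SNAI1, a repressor of epithelial genes, on day 4 of pregnancy.

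The promoters of the keratins on which the results turn are shown because the Snail family of repressors, of which *Snai1* and *Snai2* are given further on, recognises the letters CAGGTG. Each sequence holds 250 bases before and 50 bases after the start of the canonical transcript of GENCODE M39, on GRCm39, 5′ to 3′ on the strand of the gene, and capitals mark CAGGTG or its reverse complement CACCTG.
*Krt8*, chr15:101912868-101913167, minus strand: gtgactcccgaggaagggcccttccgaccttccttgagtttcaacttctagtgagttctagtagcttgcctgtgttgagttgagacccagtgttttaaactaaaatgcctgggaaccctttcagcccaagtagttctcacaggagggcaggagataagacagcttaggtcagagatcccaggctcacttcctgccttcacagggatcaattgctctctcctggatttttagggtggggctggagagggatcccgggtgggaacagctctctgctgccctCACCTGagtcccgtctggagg
*Krt18*, chr15:101936365-101936664, plus strand: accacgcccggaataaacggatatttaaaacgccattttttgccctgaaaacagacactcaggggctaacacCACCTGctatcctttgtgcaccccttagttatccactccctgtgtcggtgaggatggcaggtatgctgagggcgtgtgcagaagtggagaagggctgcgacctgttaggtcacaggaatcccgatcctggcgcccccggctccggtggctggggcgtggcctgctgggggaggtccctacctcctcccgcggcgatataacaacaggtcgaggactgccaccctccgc
*Krt7*, chr15:101310033-101310332, plus strand: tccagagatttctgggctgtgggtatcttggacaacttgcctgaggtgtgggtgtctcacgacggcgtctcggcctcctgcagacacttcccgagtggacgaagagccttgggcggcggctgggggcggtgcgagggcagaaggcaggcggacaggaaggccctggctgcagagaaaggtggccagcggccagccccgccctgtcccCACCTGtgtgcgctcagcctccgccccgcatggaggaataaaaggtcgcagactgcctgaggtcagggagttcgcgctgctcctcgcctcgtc
*Krt80*, chr15:101267994-101268293, minus strand: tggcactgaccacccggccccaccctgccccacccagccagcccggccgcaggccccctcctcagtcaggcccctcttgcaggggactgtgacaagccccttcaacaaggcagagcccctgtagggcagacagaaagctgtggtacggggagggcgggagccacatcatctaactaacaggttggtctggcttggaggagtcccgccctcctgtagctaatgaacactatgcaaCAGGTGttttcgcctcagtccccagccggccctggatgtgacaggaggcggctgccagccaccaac
*Krt19*, chr11:100036897-100037196, minus strand: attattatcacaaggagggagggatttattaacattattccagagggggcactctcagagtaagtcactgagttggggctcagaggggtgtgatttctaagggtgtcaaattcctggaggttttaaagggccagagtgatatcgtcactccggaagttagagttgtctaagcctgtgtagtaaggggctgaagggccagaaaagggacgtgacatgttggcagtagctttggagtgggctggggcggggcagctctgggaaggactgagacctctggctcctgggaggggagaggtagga

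CAGGTG on either strand was present in the windows of *Krt8*, *Krt18*, *Krt7*, *Krt80*, *Krt23*, *Krt17* and *Krt5*, which are 7 of the 10 keratins, and in 20.6% of the 21757 windows of the same length at protein-coding genes. It began 43 bases before the start in *Krt7*, 16 bases before it in *Krt80*, 178 bases before it in *Krt18* and 30 bases after it in *Krt8*. The windows of *Krt19*, *Krt15* and *Krt14* did not hold these letters. TTCNNNGAA, the letters recognised by STAT proteins, the effectors of Gp130, was in the window of 0 of the 10 keratins and in 8.82% of all windows. TGANTCA, a loose form of the letters of AP-1 with any base in the middle, was in those of *Krt14*, *Krt15* and *Krt17* and in 7.15% of all windows. In each of these keratin windows it read TGAATCA, which is not the usual AP-1 site, TGACTCA or TGAGTCA. A match of letters does not show that a factor binds there, and a window without a match leaves the rest of the gene unread.

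Total expected counts ranged from 13960748 in control 3 to 25906443 in control 2, and the *Gp130* ecKO libraries lay between 22930513 and 25550809. CPM is the count relative to 1000000 counts of the library total scaled by TMM. A count of 3, taken as the floor of detection, corresponded to 0.115 to 0.20 CPM depending on the library, and it covers counting error only. Of the 10 keratins, 8 passed the filter on low counts, and *Krt5* and *Krt14* did not.

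Among the keratins of simple epithelia, *Krt8*, *Krt19* and *Krt7* were higher in every *Gp130* ecKO uterus than in every control uterus, a pattern shown by 15.7% of all tested genes, and *Krt18* overlapped between the groups. None of the 10 keratins passed the FDR of 0.05 with more than 2-fold change in edgeR's quasi-likelihood test, a threshold that 26 of 16605 tested genes passed (0.157%). The adjusted p of the keratins that passed the filter lay between 0.0548 and 0.234 in that test.

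*Krt8*, the type II chain of simple epithelia (ENSMUSG00000049382, chr15:101905133-101912917), had 435, 649 and 347 CPM in control uteri. The ecKO uteri held 1447, 1016 and 1101 CPM. The highest control, control 2, therefore lay below the lowest *Gp130* ecKO uterus. The mean CPM was 477 ± 155 (SD, n = 3) in control uteri and 1188 ± 228 in ecKO uteri, a log2 fold change of 1.32 (SE 0.30, FDR = 0.0821 by the edgeR quasi-likelihood test). Of all stretches of 75 bases in *Krt8* transcripts, 21.1% also occur in other genes, mainly in the pseudogene *Krt8-ps*, which had 1.62 to 3.2 CPM in control uteri and 5.68 to 8.59 CPM in ecKO uteri.

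*Krt18*, the type I partner of *Krt8* (ENSMUSG00000023043, chr15:101936615-101940462), had 581, 459 and 286 CPM in control uteri. The ecKO uteri held 940.4, 546.5 and 733 CPM. Control 1 lay above *Gp130* ecKO 2, so that the groups overlapped. The log2 fold change was 0.74 (SE 0.32, FDR = 0.203 by the edgeR quasi-likelihood test).

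*Krt19*, a type I chain that can pair with *Krt8* and *Krt7* (ENSMUSG00000020911, chr11:100031636-100039491), varied widely in the control. It had 86 CPM in control 1, 382 CPM in control 2 and 109 CPM in control 3, against 1066, 744 and 829 CPM in ecKO uteri. The groups did not overlap, and control 2 was the control nearest to the *Gp130* ecKO uteri, as it was for *Krt8*. The log2 fold change was 2.19 (SE 0.57, FDR = 0.0953 by the edgeR quasi-likelihood test) and was 3.21 without control 2 (FDR = 0.00703 in edgeR). Without control 2, *Krt8*, *Krt19* and *Krt80* passed the threshold, as did 5.2% of all genes tested in that fit. When any other uterus was left out, the adjusted p of *Krt19* in edgeR was 0.152 to 0.263. *Krt19* shares 13.3% of its stretches of 75 bases with *Gm73150*, a long non-coding RNA on the opposite strand for which no value was used here.

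*Krt7*, a type II chain of glandular and ductal epithelia (ENSMUSG00000023039, chr15:101308924-101328194), was steady in the control, with 124, 107 and 101 CPM. It had 340, 147 and 291 CPM in ecKO uteri. All *Gp130* ecKO values were above the control values, with *Gp130* ecKO 2 nearest to them. The log2 fold change was 1.23 (SE 0.30, FDR = 0.0923 by the edgeR quasi-likelihood test).

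Of the less abundant keratins, *Krt80* and *Krt15* were also higher in every *Gp130* ecKO uterus, and *Krt23* overlapped. *Krt80*, a type II keratin of cells with desmosomes (ENSMUSG00000037185, chr15:101245325-101268043), had 5.14, 5.01 and 6.33 CPM in control uteri and 45, 16.5 and 29.5 CPM in ecKO uteri. Its lowest ecKO value exceeded its highest control value, and its log2 fold change was 2.47 (SE 0.38, FDR = 0.0548 by the edgeR quasi-likelihood test). Without the filter on low counts its adjusted p was 0.0375 in the same test. The long non-coding RNA *Gm35853* lies across *Krt80* on the opposite strand and had 0.405, 1.43 and 0.6 CPM in control uteri and 4.88, 2.85 and 5.43 CPM in ecKO uteri (log2 fold change 2.39, or 3.19 without control 2). The libraries were stranded, but whether the strand was used in counting is not given in the sources used here, and reads of the overlap cannot be assigned with certainty.

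*Krt23*, a type I keratin (ENSMUSG00000006777, chr11:99366873-99383963), had 48.8, 25.8 and 9.73 CPM in control uteri and 84.3, 36.7 and 114 CPM in ecKO uteri. *Gp130* ecKO 2 lay below control 1. The log2 fold change was 1.47 (SE 0.60, FDR = 0.186 by the edgeR quasi-likelihood test) and 2.15 without control 1.

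*Krt15*, a type I keratin of basal cells (ENSMUSG00000054146, chr11:100022584-100026775), was near the floor, with 4, 1 and 4 counts in control uteri and 22, 12 and 73 counts in ecKO uteri. These counts gave 0.162, 0.0386 and 0.267 CPM in control uteri and 0.995, 0.461 and 3.03 CPM in ecKO uteri. The groups did not overlap, with most of the reads in the third ecKO uterus. The log2 fold change was 3.36 (SE 0.93, FDR = 0.0993 by the edgeR quasi-likelihood test).

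The basal and stress keratins were scarce in both groups. *Krt17*, a type I keratin induced in injured epithelia (ENSMUSG00000035557, chr11:100147040-100151974), was the only tested keratin of the 10 with a negative log2 fold change, −2.32 (SE 1.09, FDR = 0.234 by the edgeR quasi-likelihood test). It had 2.95, 0.540 and 4.07 CPM in control uteri and 1.31, 0 and 0.207 CPM in ecKO uteri, and *Gp130* ecKO 1 lay above control 2. The log2 fold change was −4.53 without *Gp130* ecKO 1 and −1.70 without *Gp130* ecKO 2. *Krt14* (ENSMUSG00000045545, chr11:100093988-100098490) had 8, 5 and 2 counts in the control and 5, 1 and 5 counts in *Gp130* ecKO. *Krt5* (ENSMUSG00000061527, chr15:101615505-101621346) had a single count, in control 2, and 0 counts in the other uteri. The *Krt5* and *Krt14* pair of stratified epithelium was therefore at or near the floor of detection in all 6 uteri.

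**Figure D1:**
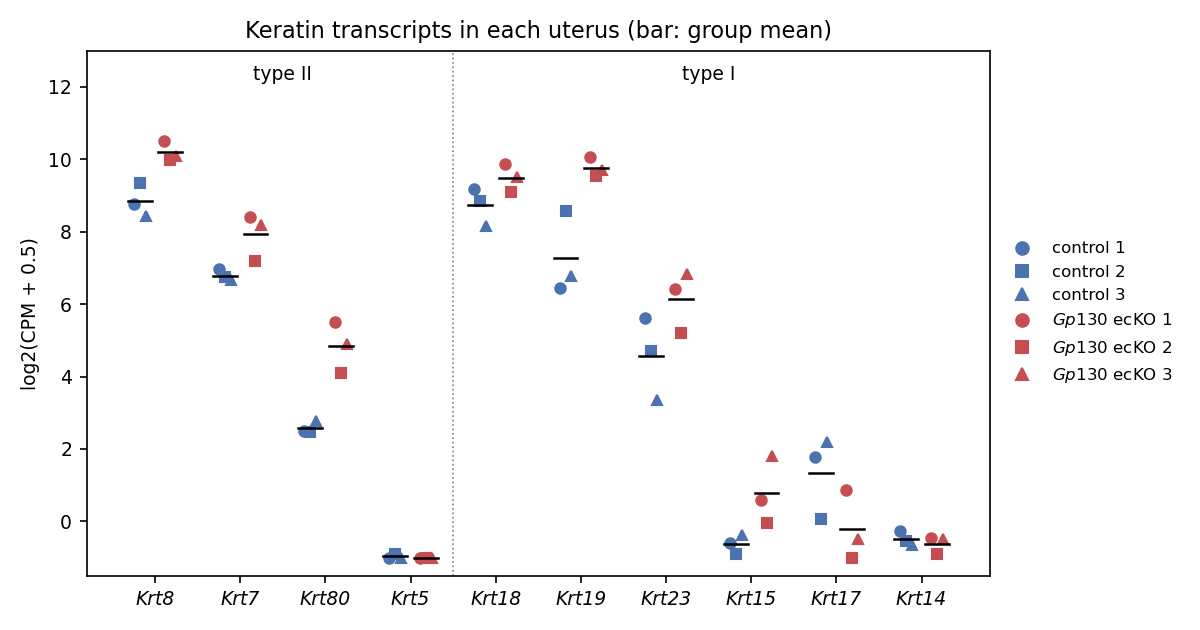
Level of each keratin in each uterus as log2(CPM + 0.5), with type II keratins on the left and type I keratins on the right. Blue points are controls and red points *Gp130* ecKO uteri, the shape marks the replicate, and black bars are means of the 3 uteri. *Krt8*, *Krt7*, *Krt80*, *Krt19* and *Krt15* have every red point above every blue point.

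Counted over the 10 keratins, 5 were higher in every *Gp130* ecKO uterus than in every control uterus, against the share of 15.7% over all tested genes. *Krt15* is among them and passed the filter only through the ecKO uteri, which largely fixed its direction, and without it the count was 4 of 9. An unadjusted p below 0.05 with a higher level in *Gp130* ecKO was found for 6 of the 8 tested keratins in edgeR's quasi-likelihood test and for 12.1% of all tested genes, or for 5 of 7 without *Krt15*. The median log2 fold change was 1.39 over the 8 tested keratins and −0.05 over all tested genes. With 3 against 3 uteri, an exact permutation test (two-sided, on log2(CPM + 0.5)) cannot go below p = 0.1, and it gave p = 0.1 for the 5 keratins without overlap. DESeq2 placed those same 5 keratins past the FDR of 0.05 and 2-fold change, together with 9.17% of all tested genes. The edgeR exact test also called these 5 keratins, together with 7.46% of all tested genes. Both tests call many more genes than the quasi-likelihood test in these uteri.

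Levels of the keratins described here were compared per transcript length, as TPM. In the control the order of mean TPM was *Krt18* with 418 ± 119 (SD, n = 3), *Krt8* with 329 ± 103, *Krt19* with 244 ± 208, *Krt7* with 85.0 ± 3.89, *Krt23* with 24.0 ± 15.7 and *Krt80* with 2.60 ± 0.696. *Krt18*, *Krt8* and *Krt19* did not differ beyond their spread in the control. In *Gp130* ecKO the order began with *Krt19*, with 1200 ± 233 TPM, followed by *Krt8* with 868 ± 179 and *Krt18* with 743 ± 190, of which *Krt8* and *Krt18* lay within each other's spread. *Krt7* had 221 ± 77.8 TPM, *Krt23* had 70.1 ± 29.7 TPM and *Krt80* had 14.7 ± 6.82 TPM in ecKO uteri. *Krt15*, *Krt17*, *Krt14* and *Krt5* each had at most 3.82 TPM in any uterus.

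Among the keratins described here, the type I chains summed to 667, 943 and 455 TPM in control uteri and to 2501, 1769 and 1776 TPM in ecKO uteri. The type II chains summed to 376, 533 and 341 TPM in control uteri and to 1386, 963 and 962 TPM in ecKO uteri. Both sums were higher in every *Gp130* ecKO uterus, with log2 differences of 1.59 for type I and 1.41 for type II (exact permutation p = 0.1 for each, the smallest possible). The ratio of type I to type II RNA was 1.77, 1.77 and 1.33 in control uteri and 1.80, 1.84 and 1.85 in ecKO uteri. It was therefore nearly level across 5 of the 6 uteri while the sums differed by several fold. The log2 difference of the ratio was 0.18 (exact permutation p = 0.1) and 0.05 without control 3, the shallowest library, which had the lowest ratio. The sums and the ratio leave out *Krt83*, a type II keratin with 42.5, 33.4 and 12.5 TPM in control uteri. *Krt83* had 67.3, 67.65 and 155 TPM in ecKO uteri and was above *Krt80* in every uterus. The separation of the groups by the ratio is therefore shown only for the keratins summed here, and a ratio with *Krt83* included was not tested.

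Within the type I pool, the shares of *Krt19* and *Krt18* did not overlap between the groups. *Krt19* made up 14.7%, 51.1% and 33.2% of type I TPM in control uteri and 58.4%, 63.7% and 57.0% in ecKO uteri. All *Gp130* ecKO shares were above the control shares, by 26.7 percentage points on average, or 17.5 without control 1 (exact permutation p = 0.1 with all uteri). *Krt18* made up 78.8%, 46.4% and 63.8% in the control and 38.4%, 34.2% and 37.5% in *Gp130* ecKO. The ratio of *Krt18* to *Krt8* TPM was 1.85, 0.978 and 1.14 in control uteri and 0.899, 0.743 and 0.920 in ecKO uteri, where every value was lower. The log2 difference of that ratio was −0.58, or −0.31 without control 1 (exact permutation p = 0.1 with all uteri). In the type II pool, which leaves out *Krt83*, *Krt8* was 75.7%, 83.9% and 74.9% of type II TPM in control uteri and 77.04%, 84.5% and 75.2% in *Gp130* ecKO. These shares overlapped (exact permutation p = 0.6), and the 2 pools were not compared by a test. The shares and ratios in this paragraph were chosen after the values had been seen.

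**Figure D2:**
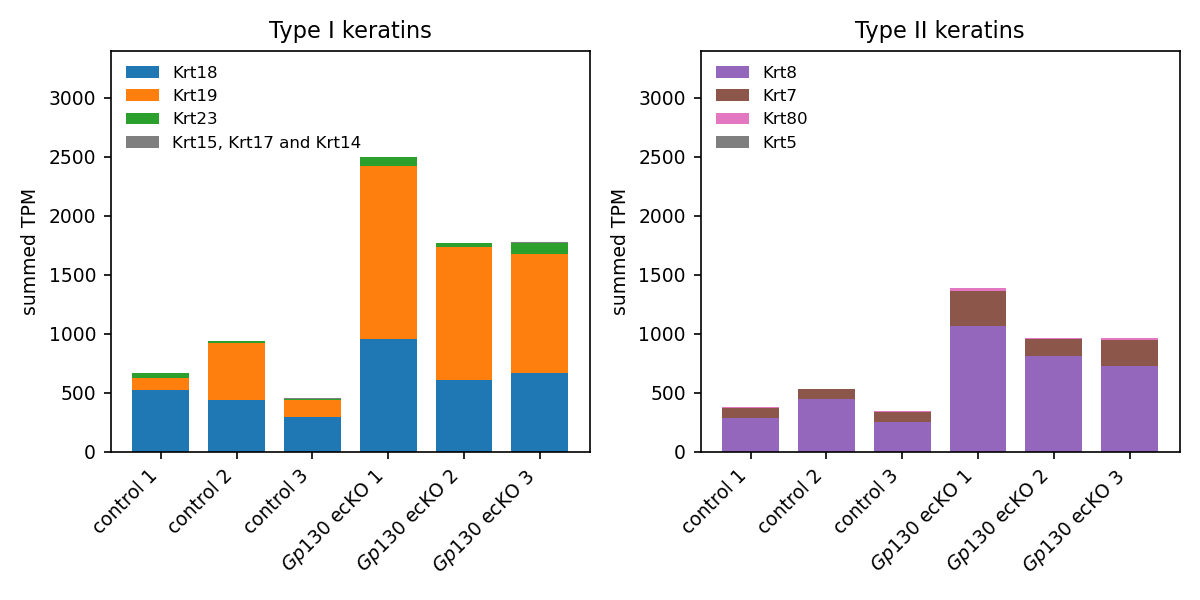
Summed TPM of the type I keratins (left) and type II keratins (right) described here in each uterus, without *Krt83*, stacked by gene from 0. *Krt19*, in orange, takes 57.0% to 63.7% of the type I bar in *Gp130* ecKO uteri and 14.7% to 51.1% in controls, while *Krt8*, in purple, takes 74.9% to 84.5% of the type II bar in all uteri.

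The keratins were also set against other epithelial genes, since RNA of the whole uterus was sequenced. The list of 15 general epithelial genes, made of junction, membrane protease and trafficking genes, had a median log2 fold change of 0.66, and 6 of the 15 were higher in every *Gp130* ecKO uterus, against 15.7% of all tested genes. None of the 15 was called, and their summed level ranged from 2459 to 4701 CPM in control uteri and from 4460 to 6419 CPM in ecKO uteri. *Cdh1*, the cadherin of epithelial junctions, had 699, 733 and 615 CPM in control uteri and 1219, 1131 and 887 CPM in ecKO uteri. *Epcam*, an adhesion molecule of epithelial cells, had 649.5, 379 and 348 CPM in control uteri and 429, 363 and 414 CPM in ecKO uteri, with overlap.

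Relative to the mean log2(CPM + 0.5) of those 15 genes in the same uterus, a scale added after seeing the data, *Krt19*, *Krt80* and *Krt8* were still higher in every *Gp130* ecKO uterus. The differences of group means were 1.78 (SE 0.78) for *Krt19*, 1.54 (SE 0.50) for *Krt80* and 0.63 (SE 0.34) for *Krt8* on the log2 scale. For *Krt8* the groups lay close together, with control 2 at 2.38 and *Gp130* ecKO 1 at 2.42. Control 1 was the lowest uterus for *Krt19*, *Krt80* and *Krt8*, at −1.07, −5.01 and 1.26. *Krt7* overlapped on this scale with a difference of 0.43 (SE 0.38), as did *Krt23* with 0.87 (SE 0.61). *Krt18* differed by 0.05 (SE 0.16). Of the scarce keratins, *Krt15* overlapped on this scale with a difference of 0.69 (SE 0.75), while *Krt17* and *Krt14* were lower in every *Gp130* ecKO uterus, by −2.28 (SE 0.86) and −0.85 (SE 0.28). For genes near 0 counts this scale mainly follows the mean of the 15 genes. *Epcam* was lower in every *Gp130* ecKO uterus on this scale, by −0.86 (SE 0.21). It is itself among the 15 genes of the mean, and its CPM overlapped between the groups. The part that the share of epithelium in each sample plays in the keratin levels was not tested.

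**Figure D3:**
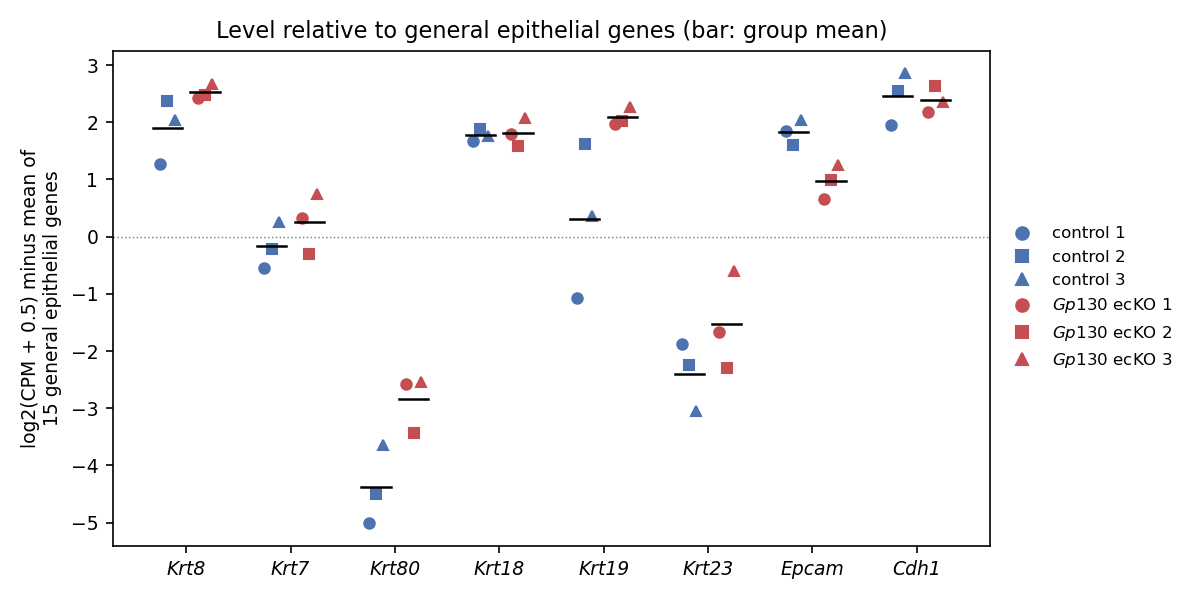
log2(CPM + 0.5) of 6 keratins, *Epcam* and *Cdh1* in each uterus after subtracting the mean of 15 general epithelial genes in that uterus. Points and bars are as in the plot of keratin levels by uterus. *Krt19*, *Krt80* and *Krt8* remain separated between the groups, and *Krt18* differs by 0.05. *Epcam* and *Cdh1* are themselves among the 15 genes.

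Markers of stroma, endothelium and mesothelium were at lower values in *Gp130* ecKO, and most gland genes had positive log2 fold changes. None of the stroma, endothelium, smooth muscle, mesothelium, gland or macrophage genes was called. All 8 stroma genes and all 5 endothelium genes had negative log2 fold changes, with medians of −0.79 and −1.26, and 5 and 4 of them were lower in every *Gp130* ecKO uterus, as were 15.6% of all tested genes. Stroma genes summed to 3284 to 4299 CPM in control uteri and 1946 to 2585 CPM in ecKO uteri, and endothelium genes to 342 to 820.1 CPM and 185 to 332 CPM. Smooth muscle genes overlapped, with sums of 487 to 2029 CPM in control uteri and 367 to 2292 CPM in ecKO uteri. Mesothelium, the keratin-bearing outer lining of the uterus, had 8 of 8 genes with negative log2 fold changes (median −1.13), and 2 were lower in every *Gp130* ecKO uterus. Mesothelium genes summed to 196 to 339 CPM in control uteri and 86.7 to 149 CPM in ecKO uteri. Of the 8 gland genes, which mark a keratin-bearing epithelium, 7 had positive log2 fold changes (median 0.41). Only 1 was higher in every *Gp130* ecKO uterus, against 15.7% of all tested genes. Gland genes summed to 152 to 1095 CPM in control uteri and 216 to 8756 CPM in ecKO uteri. *Gp130* ecKO 1 was at the upper end, and the other ecKO uteri, at 216 and 277 CPM, lay within the control range. Macrophage genes summed to 150.2 to 219 CPM and 75.5 to 166 CPM. Of 21 genes of stratified squamous epithelium, 14 did not pass the filter, and *Sprr1b* and *Cnfn* had 0 counts in every uterus. The part of these layers in the keratin differences was not tested.

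**Figure D4:**
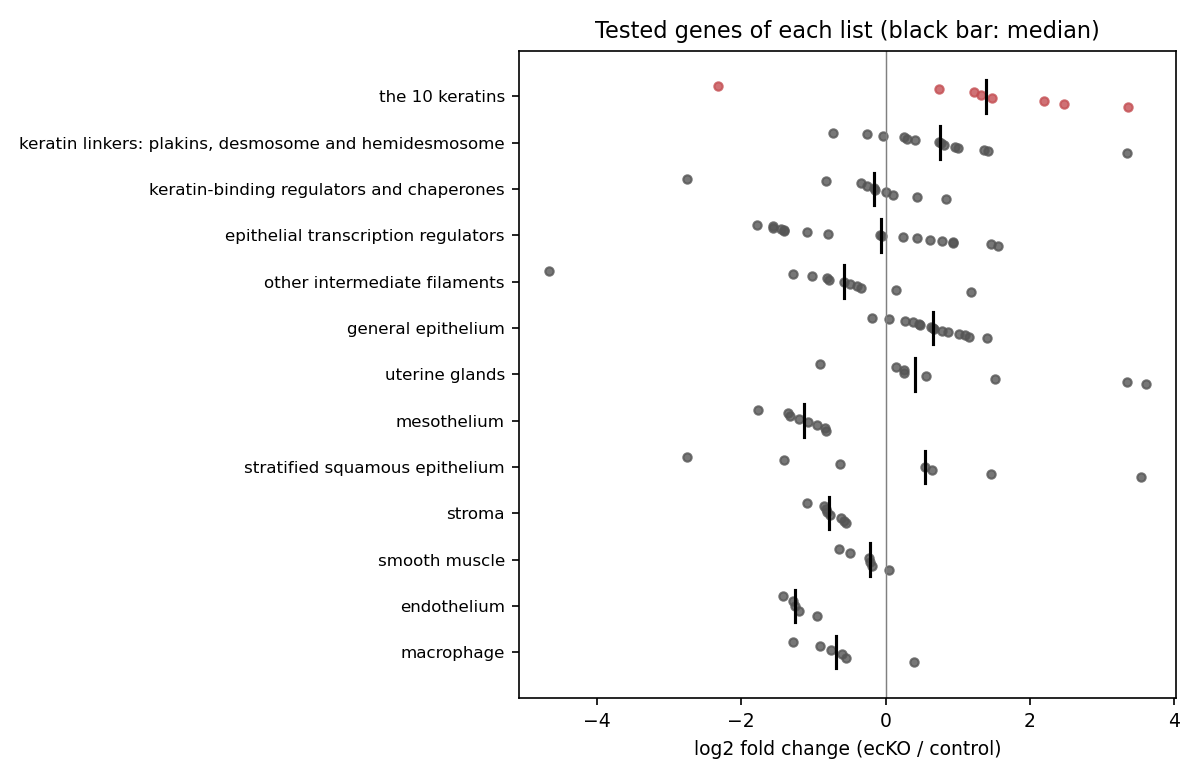
log2 fold change of *Gp130* ecKO over control for every tested gene of each list, with a black bar at the median. The tested keratins, in red, have a median of 1.39, and the general epithelial genes 0.66, while the medians of stroma, mesothelium and endothelium lie below 0.

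Among the proteins that tie keratin filaments to junctions, 11 of 14 tested genes had a positive log2 fold change and 6 were higher in every *Gp130* ecKO uterus. Over all tested genes 7824 of 16605 had a positive value and 15.7% were higher in every one. *Dsg2*, a desmosomal cadherin of simple epithelia, was the only called gene of this list and rose from 70.4, 58.0 and 58.5 CPM to 177, 173 and 147 CPM, a log2 fold change of 1.41 (SE 0.16, FDR = 0.0430 by the edgeR quasi-likelihood test). Its FDR in edgeR was 0.106 to 0.137 when any uterus other than control 2 was left out, 0.0593 in the legacy form of the test and 0.0652 with the replicate number as a block. *Dsc2*, a desmosomal cadherin, had the largest log2 fold change of this list, 3.35 (SE 0.47, FDR = 0.0548 by the edgeR quasi-likelihood test). It had 24.8, 22.3 and 12.5 CPM in control uteri and 125, 138 and 344 CPM in ecKO uteri. Desmoplakin (*Dsp*), which anchors keratin at the desmosome, had 91.5, 96.3 and 92.9 CPM in control uteri and 255, 168 and 139 CPM in ecKO uteri. Periplakin (*Ppl*), a linker that binds KRT8, had 57.8, 87.5 and 64.3 CPM in control uteri and 218, 219 and 105 CPM in ecKO uteri. Plectin (*Plec*), the linker at hemidesmosomes, had 234, 179 and 374 CPM in control uteri and 367, 260 and 138 CPM in ecKO uteri, with overlap.

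The regulators and chaperones that bind keratins gave 4 positive and 6 negative log2 fold changes in 10 tested genes, with a median of −0.16 and no call. The 4 with the smallest p were *Tgm1*, a keratinocyte transglutaminase, at −2.74, *Trp53bp2* at 0.84, *Fam83h*, an organiser of keratin filaments, at 0.44, and *Sfn*, a 14-3-3 protein, at −0.82. *Tgm1* was at −1.88 without control 1 and passed the threshold without control 2 (FDR = 0.0387 in edgeR). With any other uterus left out, the FDR of *Tgm1* in edgeR was 0.162 to 0.263. *Sfn* was at −1.62 without *Gp130* ecKO 1, −0.43 without *Gp130* ecKO 2 and −0.38 without control 3. Other intermediate filaments lay on the opposite side from the keratins, with 9 of 11 tested genes negative, 6 of them lower in every *Gp130* ecKO uterus, and no call. *Prph* passed the filter mainly through the control uteri, and without it 8 of 10 were negative and 5 lower in every one. Over all tested genes 8781 of 16605 were negative and 15.6% were lower in every one. All 8 stroma genes and all 5 endothelium genes were negative too, with medians of −0.79 and −1.26. The part of these layers in the filament levels was not tested. Vimentin (*Vim*), the filament of stromal and other mesenchymal cells, had 1041, 885 and 788 CPM in control uteri and 299, 535 and 502 CPM in ecKO uteri. *Nes* and *Lmnb1* had log2 fold changes of −1.28 and −0.81, the latter −0.48 without control 1, and *Prph* had 176, 16 and 31 counts in control uteri and 5, 2 and 2 counts in ecKO uteri, near the floor. Its log2 fold change was −4.66, or −3.24 without control 1 and −5.27 without *Gp130* ecKO 1, and it passed the threshold without control 2 (FDR = 0.0176 in edgeR). With any other uterus left out, the FDR of *Prph* in edgeR was 0.152 to 0.219.

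Of 20 regulators of epithelial transcription, 18 were tested, none was called, 5 were higher and 5 lower in every *Gp130* ecKO uterus, against 15.7% and 15.6% of all tested genes. Their median log2 fold change was −0.06. *Ehf* and *Grhl2*, activators of epithelial genes, were among the former. *Ehf* had 135, 167 and 87.1 CPM in control uteri and 376, 319 and 448 CPM in ecKO uteri. *Grhl2* had 53.2, 63.5 and 50.6 CPM in control uteri and 131, 106 and 83.8 CPM in ecKO uteri. Among the latter were *Snai1*, *Snai2*, *Twist1* and *Zeb2*, repressors of epithelial genes. *Snai1* stood at 33.8, 24.6 and 63.5 CPM in control uteri and at 12.3, 22.1 and 6.92 CPM in ecKO uteri, with *Gp130* ecKO 2 close below control 2 (FDR = 0.124 by the edgeR quasi-likelihood test). *Snai2* had 14.6, 15.5 and 17.0 CPM in control uteri and 4.97, 5.27 and 6.92 CPM in ecKO uteri, and *Twist1* had 9.34, 6.63 and 8.60 CPM against 1.76, 2.65 and 2.69 CPM. The adjusted p in edgeR's quasi-likelihood test was 0.0636 for *Ehf*, 0.0795 for *Grhl2*, 0.0622 for *Snai2* and 0.0636 for *Twist1*. Without control 2 it was 0.0254 for *Ehf*, 0.0490 for *Snai2* and 0.0410 for *Twist1* in edgeR. The same fit gave 0.0510 for *Grhl2*, 0.0725 for *Zeb2* and 0.0814 for *Snai1*, above the threshold, and called 5.2% of all genes tested. When any other uterus was left out, the adjusted p in edgeR was 0.112 to 0.177 for *Ehf*, 0.121 to 0.190 for *Snai2* and 0.121 to 0.197 for *Twist1*. Such repressors are also expressed by mesenchymal cells, and 5 of the 8 stroma genes were lower in every *Gp130* ecKO uterus. The part of stroma in these levels was not tested.

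The tables hold 45 other keratin genes, of which 9 passed the filter and 26 had at most 3 counts in every uterus. Of the 9, 5 were higher in every *Gp130* ecKO uterus, against 15.7% of all tested genes, and none was called. Of these 5, *Krt35*, *Krt36* and *Krt13* had few counts in the control and passed the filter mainly through the ecKO uteri, so their part of the count was largely set by the filter, and 2 of the other 6 were higher. *Krt83*, a keratin of hair, was the most abundant of them, with 57.4, 42.8 and 15.1 CPM in control uteri and 76.7, 74.1 and 208 CPM in ecKO uteri (log2 fold change 1.64, FDR = 0.144 by the edgeR quasi-likelihood test). It shares 11.9% of its stretches of 75 bases with other hair keratins, and its neighbour *Krt87*, at 1.56, shares 20.3%, so that the division of reads between them is uncertain. Without *Gp130* ecKO 3, which had the highest level of both, *Krt83* was at 0.99 and *Krt87* at 0.80. *Krt36* had 0.0809, 0.154 and 0 CPM in control uteri and 2.76, 1.42 and 1.37 CPM in ecKO uteri, from 2, 4 and 0 counts in the control. *Krt13*, a keratin of stratified mucosa, had 0.0809, 0.540 and 0.20 CPM in control uteri and 3.98, 1.58 and 4.60 CPM in ecKO uteri.

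Keratin genes lie in a type I cluster on chromosome 11, with 27 genes in these tables, and a type II cluster on chromosome 15, with 28 genes including *Krt18*, the type I gene that lies beside *Krt8*. On chromosome 11, *Krt35*, *Krt36*, *Krt13*, *Krt15* and *Krt19* follow each other without another keratin between them. All 5 were higher in every *Gp130* ecKO uterus, a pattern shown by 15.7% of all tested genes. Their log2 fold changes were 1.78, 4.27, 3.54, 3.36 and 2.19. Without control 2, *Krt35* was at 4.22 (FDR = 0.0321 in edgeR), *Krt36* at 5.08 (FDR = 0.0298) and *Krt13* at 4.70 (FDR = 0.0301). That fit called 5.2% of all genes tested in it. With any other uterus left out, the FDR in edgeR was 0.259 to 0.472 for *Krt35*, 0.111 to 0.162 for *Krt36* and 0.112 to 0.197 for *Krt13*. Without *Gp130* ecKO 3, *Krt15* was at 2.34. All but *Krt19* of these 5 neighbours had few counts in the control, 1, 18 and 1 for *Krt35*, 2, 4 and 0 for *Krt36*, 2, 14 and 3 for *Krt13* and 4, 1 and 4 for *Krt15*. They passed the filter mainly through their counts in the ecKO uteri, so that a higher level there was to a large part set by the filter. The keratins after *Krt19* in this order, *Krt9*, *Krt14* and *Krt16*, did not pass the filter, and *Krt17* follows with −2.32. On chromosome 15, *Krt80*, *Krt7* and *Krt87* lie beside each other at the first end with log2 fold changes of 2.47, 1.23 and 1.56, and *Krt8* and *Krt18* lie beside each other at the last end with 1.32 and 0.74. Between *Krt83* and *Krt8*, none of the keratins passed the filter. The runs were noticed after the values had been seen and were not tested.

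**Figure D5:**
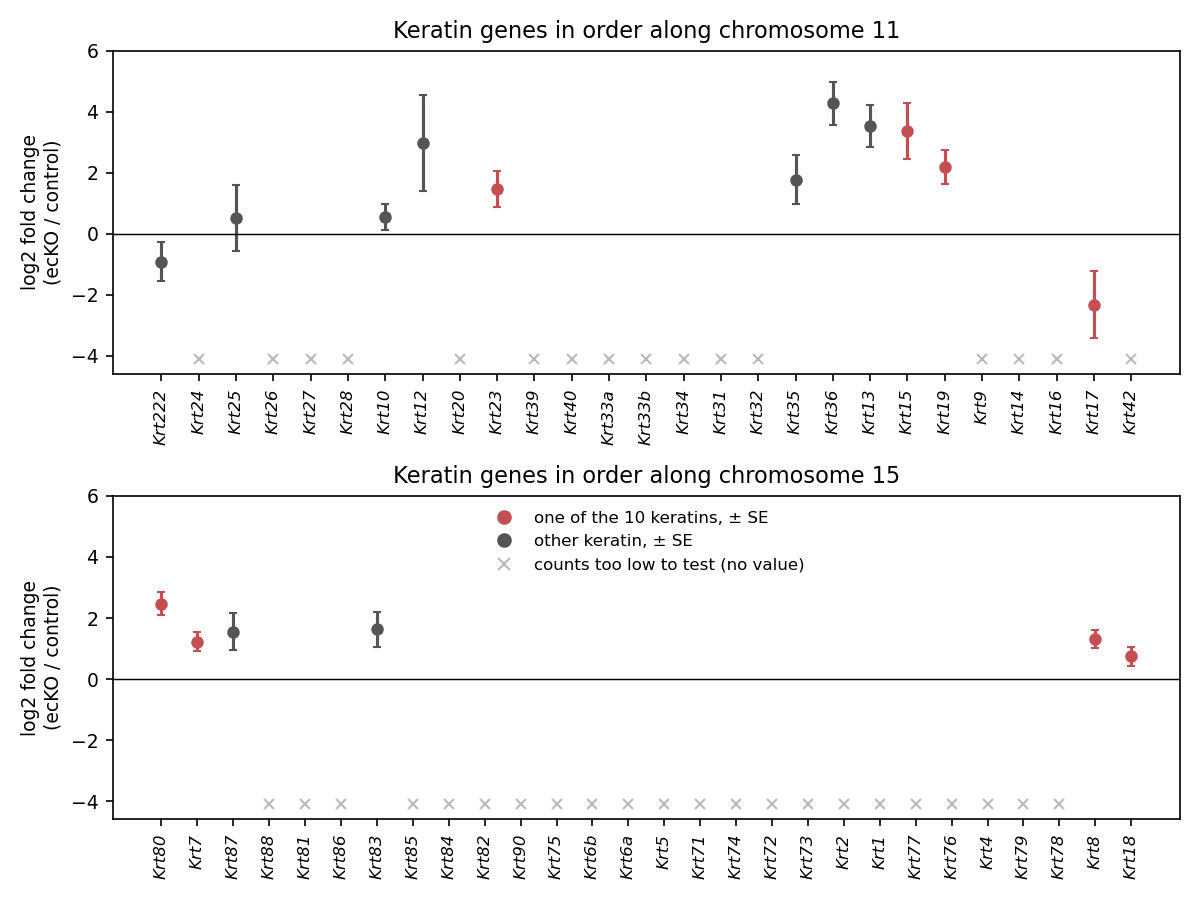
log2 fold change ± SE of *Gp130* ecKO over control for keratin genes in their order along chromosomes 11 (top) and 15 (bottom), with equal spacing. Red points are the keratins described here, dark points other tested keratins, and crosses at the lower edge genes with too few counts to test, which have no value. The 5 neighbours from *Krt35* to *Krt19* all lie above 0, between 1.78 and 4.27.

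The genes whose profile over the 6 uteri was nearest to that of each abundant keratin were found among 10258 other genes with a mean of at least 10 CPM, by the root mean square difference of centred log2(CPM + 0.5). For *Krt8* these were *Hip1r*, *Dcaf11* and *Bcl2l14*, at differences of 0.05, 0.09 and 0.10. For *Krt18* they were *Pepd*, *Wfdc2* and *Atp6v1h*, at 0.10, 0.11 and 0.11. For *Krt19* they were *Dact2*, *Ubb-ps* and *Itgb6*, at 0.20, 0.23 and 0.24. For *Krt7* they were *Tshr*, *Tmem218* and *Sema3c*, at 0.14, 0.15 and 0.18, and for *Krt23* *Sult1d1*, *Degs2* and *Gmds*, at 0.31, 0.35 and 0.36. *Krt18* ranked 723 by nearness to its filament partner *Krt8*, at 0.41, and *Krt7* ranked 600 at 0.39. By nearness to *Krt7*, *Krt18* ranked 59 and *Krt8* 157. By nearness to *Krt23*, *Krt18* ranked 86, *Krt7* 90 and *Krt8* 215, and by nearness to *Krt19*, *Krt8* ranked 221. *Krt19* lay farthest from *Krt23* and *Krt18*, at 1.14 and 1.13.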

How the data were processed

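RNA-seq was performed on 6 whole uteri, 3 of control and 3 of *Gp130* ecKO females, 1 library each. Per the submitters' notes and the study's methods, reads were trimmed with fastp 0.23.2, freed of ribosomal reads, mapped to GRCm39 with STAR 2.7.10a and counted with RSEM 1.3.3. The annotation version is not given in the sources used here. The authors deposited for each gene an expected count, not normalized, and TPM, scaled for length and depth, with the length and effective length of the gene in bases. RSEM splits ambiguous reads between genes by its model, which makes the counts of near-identical genes depend on it. The labels number the uteri of a group without naming separate animals, so p-values measure only the spread between these samples.

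Expected counts were rounded, and edgeR 4.0.16 was run in R 4.3.3 (filterByExpr, TMM, quasi-likelihood F test, Benjamini-Hochberg adjustment over 16605 genes). Genes were called at an FDR under 0.05 and over 2-fold change. DESeq2 1.42.0, other edgeR tests, scalings, filters and left-out uteri were alternatives. Single values were compared by an exact two-sided permutation test. Total counts were 13960748 to 25906443. Symbols, coordinates and promoters came from GENCODE M39, which holds 56017 of the 56748 identifiers, and stretches of 75 bases, the read length, were compared with all its transcripts. The scripts were tested on simulated data. The members and lists were chosen with earlier results of these data known. Named were all 10 keratins, other tested keratins with an unadjusted p under 0.05 or at least 10 CPM, genes of the linker, regulator, filament and transcription lists that were called or, failing that, had among the 4 smallest p, the 3 nearest profiles and the neighbours in the keratin clusters. Other list genes, *Snai1* among them, were named for their known roles after their values had been seen, as were *Gm35853*, *Krt8-ps* and *Il6st*. *Dsc2* was named for the largest log2 fold change among the linkers. Cell type lists are given by counts and sums.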

Additional observations from a re-analysis of the deposited data

How the results depend on the processing

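The number of the 10 keratins called was 0 in the quasi-likelihood test and 5 with DESeq2, 5 with edgeR's exact test, 5 with its likelihood ratio test, 1 without the filter on low counts, and 0 to 3 when each uterus was left out in turn, with 3 only without control 2. Over all genes the count was 26, and 1523 with DESeq2, 1239 with the exact test, 1317 with the likelihood ratio test, 7 with the legacy form of the quasi-likelihood test, 105 without the filter and 1 to 892 with each uterus left out, where 892 came without control 2. The cause of these differences was not tested. The replicate numbers did not pair the uteri (correlations of deviations 0.10, 0.07 and −0.20), and with the replicate number as a block 6 genes and 0 keratins were called. None of the 8 tested keratins changed the sign of its log2 fold change under the alternatives in which it was fitted. *Krt5* and *Krt14* were fitted only without the filter. Left-out uteri moved the log2 fold change of *Krt8* between 1.13 and 1.63, of *Krt19* between 1.86 and 3.21, of *Krt7* between 0.99 and 1.52, of *Krt80* between 2.07 and 2.77 and of *Krt17* between −4.53 and −1.70. The adjusted p over 18 alternatives ranged from 0.000751 to 0.246 for *Krt8* and from 2.58e-07 to 0.158 for *Krt80* in edgeR or DESeq2. The sign reversed for *Epcam*, between −0.36 and 0.17 over the left-out uteri, with 0.17 without control 1, and for *Plec*, between −0.39 and 0.31 over the left-out uteri and at 0.0065 without the filter. *Krt5* and *Krt14* had at most 8 counts in any uterus, and whether deeper sequencing would separate the groups was not tested.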

Other observations

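Among the keratins outside the 10, some stood out by a single uterus, and those given here were chosen after their values had been seen. *Krt12*, the keratin of the corneal epithelium, had 1.29, 0.925 and 1.2 CPM in the control and 26.3, 0.0769 and 0.663 CPM in *Gp130* ecKO 1, 2 and 3, and it shares 39.2% of its stretches of 75 bases with *A830036E02Rik*. *Krt6a*, a keratin of stressed and stratified epithelium, had 49 counts in control 3, 3 in control 1 and 0 in the other 4 uteri. Control 3 also had the highest *Krt17* level, 4.07 CPM. In *Gp130* ecKO 3, *Krt85* had 70 counts and *Krt4* had 33 counts, against at most 11 and 7 counts in any other uterus. In *Gp130* ecKO 1, the gland proteases *Prss28* and *Prss29* had 1876 and 6546 CPM, against at most 178 and 523 CPM in any other uterus.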
